A study of Mus musculus with 14 samples.

Results

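The basement membrane and matrix adhesion genes examined here are 35 genes, chosen by name out of 54446 gene identifiers. They encode the chains of collagen IV and laminin, the proteins that join these 2 networks, fibronectin and matricellular proteins, the cell surface receptors that bind them, and enzymes and chaperones of collagen assembly. Their RNA was measured in 14 bulk RNA-seq libraries of mouse E14 embryonic stem (ES) cells, with 2 replicates in each of 7 groups. Wild-type (WT) cells were collected without treatment (0 h) and after 24, 72 and 144 h with the mTOR inhibitor Ink128 (mTORi). E14 TET1/2 DKO cells, which lack the DNA demethylases TET1 and TET2, were collected at 0, 24 and 72 h. All groups grew in serum and LIF on gelatin without feeder cells, and RNA was taken from sorted viable single cells. The DKO cells were made from the WT line with Cas9 guides to both genes and grown from single sorted cells, so a difference between the genotypes cannot be told apart from a difference between these lines. In bulk RNA, fewer cells of a type and less RNA per cell cannot be told apart either.

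A basement membrane is a thin sheet of matrix on which epithelial cells sit. Laminins are trimers of an α, a β and a γ chain that assemble on the cell surface, collagen IV forms a second network beside them, and nidogens and the heparan sulfate proteoglycans perlecan and agrin join both. Integrins and dystroglycan hold the sheet to the cell. In the early mouse embryo the first basement membranes lie under the primitive endoderm, a tissue known for secreting large amounts of laminin-111 and collagen IV, while pluripotent cells rest on the matrix and carry its receptors.

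The deposited values are TPM, a level per transcript length scaled to a sum of 1000000 in each library, and the files do not give the depth behind them. Of the members, 26 had a mean of at least 1 TPM over the 14 libraries and were tested with limma on log2(TPM + 1) among 15878 genes. The other 9 (Col4a3, Col4a4, Col4a5, Col4a6, Lama2, Lama4, Lamb3, Lamc3 and Lox) were at most 1.36 TPM in any library. A gene is said to have risen or fallen where its Benjamini-Hochberg adjusted p in limma was under 0.05. Every change below is a difference in log2(TPM + 1), which understates the change of low genes. Tet2 lay between 96.0 and 143 TPM in the WT libraries and between 15.9 and 22.2 in the DKO libraries, the direction the labels give. Tet1 RNA remained at 147 to 248 TPM in the DKO libraries, against 191 to 349 TPM in WT. At each time both DKO libraries were below both WT libraries, and the difference passed the threshold at 24 h only (−0.38, −0.51 and −0.31 at the 3 times). The 10 pluripotency markers summed to 4534 to 6780 TPM, of which Dppa5a alone gave 1448 to 3447 TPM. Of the 10, 4 rose and 1 fell at 24 h in each genotype. At 72 h 2 rose and 1 fell in WT, and 1 rose and 2 fell in DKO. At 144 h 3 rose and 1 fell in WT. For DKO against WT at 72 h 1 was lower and 0 were higher. The shares of all genes stand with the counts of members below. Pou5f1, 1 of the 10, was at 792 to 1057 TPM in every library, while Nanog went from a mean of 333 TPM in WT at 0 h to 184 TPM at 72 h. Within a scale of TPM each rise is relative to all other RNA. The study also normalized its values to spiked-in ERCC RNAs added to the RNA of a fixed number of cells, and that scale (spike-in normalized TPM) was rebuilt here with 1 factor per library. Over all genes its median change in WT was −0.33 at both 24 and 72 h and −0.83 at 144 h. In DKO it was −0.49 at 24 h and −0.12 at 72 h. Between the genotypes (DKO minus WT) it came to 0.29 without treatment, 0.10 at 24 h and 0.49 at 72 h. The factors of the 2 libraries of a group differed by up to 1.65 times, in DKO at 24 h.

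The collagen IV genes are described first. Col4a1 (ENSMUSG00000031502.11, chr8:11198423-11312826, minus strand, mm10) and Col4a2 (ENSMUSG00000031503.13, chr8:11312805-11449287, plus strand) encode the 2 chains of the common collagen IV trimer and lie head to head, with gene models that overlap by 22 bases. Their promoters are shown because the genes share them. The windows from 250 bases before to 50 bases after each start (RefSeq, GRCm38.p6, chr8:11312777-11313076 on the minus strand and chr8:11312555-11312854 on the plus strand) have 78 bases in common. Each is written 5′ to 3′ on its own strand with the shared bases in capitals:
Col4a1: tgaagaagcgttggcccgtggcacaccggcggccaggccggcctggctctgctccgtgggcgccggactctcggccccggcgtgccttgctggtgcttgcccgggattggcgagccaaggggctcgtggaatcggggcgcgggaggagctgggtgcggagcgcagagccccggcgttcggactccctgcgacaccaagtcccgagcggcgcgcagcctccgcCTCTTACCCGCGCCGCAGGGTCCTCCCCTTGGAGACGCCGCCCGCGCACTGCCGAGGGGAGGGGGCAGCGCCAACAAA
Col4a2: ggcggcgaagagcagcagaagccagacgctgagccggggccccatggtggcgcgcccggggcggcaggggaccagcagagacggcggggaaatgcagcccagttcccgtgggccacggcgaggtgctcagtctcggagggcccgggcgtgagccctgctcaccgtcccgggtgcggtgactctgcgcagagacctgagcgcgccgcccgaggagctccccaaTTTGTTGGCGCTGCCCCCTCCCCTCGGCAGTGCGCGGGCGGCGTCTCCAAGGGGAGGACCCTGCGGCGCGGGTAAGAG
The capitals of one are thus the reverse complement of the capitals of the other.

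In WT cells Col4a1 measured 46.1 and 43.9 TPM at 0 h and 272 and 141 TPM at 24 h. Later it measured 27.6 and 36.4 TPM (72 h) and 11.3 and 9.25 TPM (144 h). Its partner Col4a2 measured 16.6 and 19.3 TPM at 0 h, 144 and 86.3 TPM at 24 h, 13.4 and 21.0 TPM at 72 h and 5.24 and 4.55 TPM at 144 h. Both genes were highest at 24 h and lowest at 144 h, without overlap with the 0 h libraries at either time, and replicate 1 was the higher one at 24 h. Against 0 h, Col4a1 rose at 24 h by 2.10 ± 0.28 (SE, limma adjusted p = 0.00048), to 4.59 times the 0 h mean. Col4a2 rose by 2.57 ± 0.26 (limma adjusted p = 0.00011), to 6.42 times. At 144 h Col4a1 fell by 2.04 ± 0.28 (limma adjusted p = 0.0008), to 0.23 of the 0 h mean. Col4a2 fell by 1.68 ± 0.26 (limma adjusted p = 0.0013), to 0.27 of it. All 4 changes also passed on the spike-in scale, where the 24 h values were 1.74 and 2.24 and the 144 h values −3.05 and −2.68.

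In DKO cells Col4a1 measured 47.8 and 59.9 TPM at 0 h, 58.1 and 86.2 TPM at 24 h and 38.8 and 40.8 TPM at 72 h. Col4a2 measured 22.9 and 23.7 TPM at 0 h, 33.7 and 48.1 TPM at 24 h and 21.3 and 19.9 TPM at 72 h. The DKO libraries at 24 h lay below both WT libraries of that time, whereas at 0 h the genotypes differed by 0.25 ± 0.28 and 0.36 ± 0.26, neither past the threshold. Col4a2 passed the threshold in DKO at 24 h (0.77 ± 0.26, limma adjusted p = 0.048). It lost this call in 9 of 14 leave-one-out fits, with a block on the replicate number (adjusted p = 0.052) and on the spike-in scale (0.22, adjusted p = 0.64). The ratio of Col4a1 to Col4a2, which no library factor can change, stayed between 1.63 and 2.77 over all 14 libraries while the sum of the collagen IV chains ranged from 14.1 to 417 TPM. The other 4 chains, which form tissue-restricted trimers, added at most 0.314 TPM each.

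**Figure D1:**
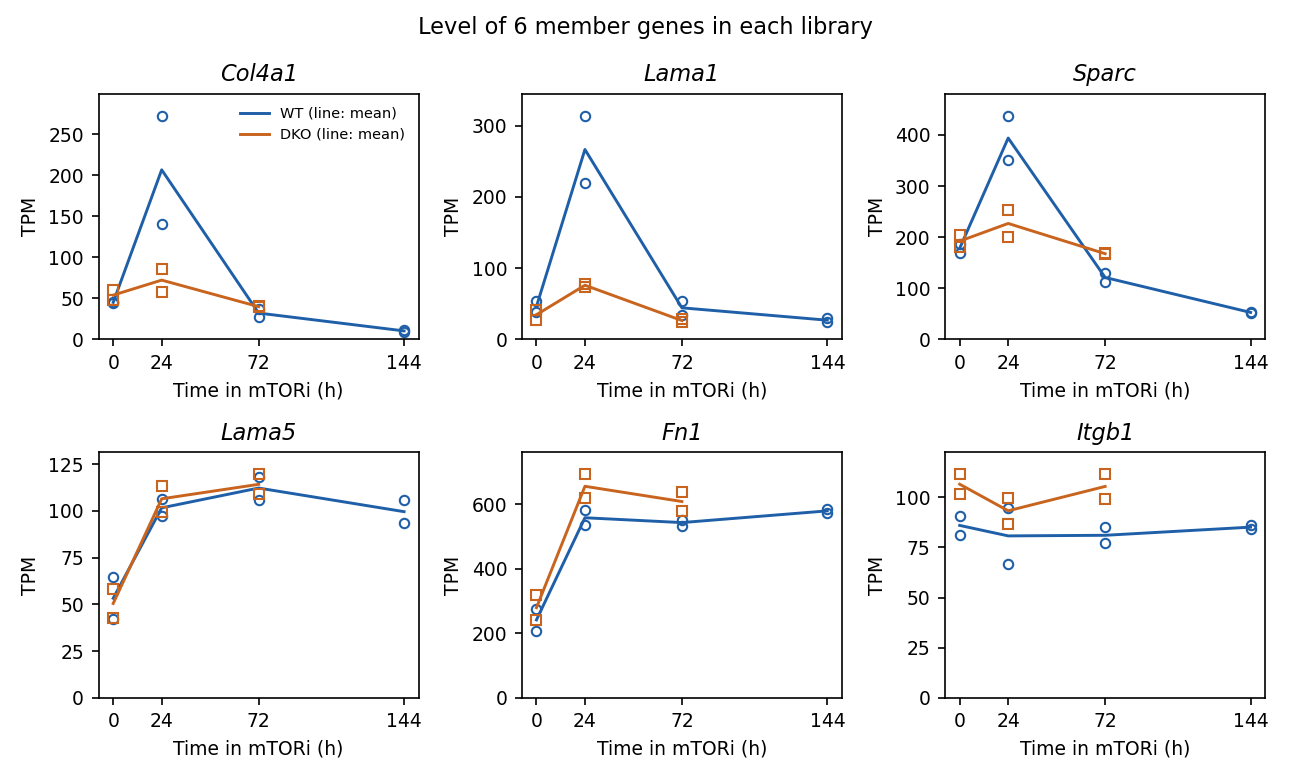
TPM (vertical axis, from 0) against hours of mTORi (horizontal axis) for 6 member genes; circles are WT libraries, squares are DKO libraries and lines join the means of 2 replicates. Col4a1, Lama1 and Sparc peak in WT at 24 h and return to or below the 0 h level by 72 h, whereas Lama5 and Fn1 stay high in both genotypes from 24 h on and Itgb1 moves little.

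Laminin-111 is made of the chains α1, β1 and γ1. Among the laminin chains tested, α1 (Lama1) and α5 (Lama5) took different courses. Lama1, the α chain of laminin-111, measured 38.9 and 53.4 TPM in WT at 0 h, 314 and 219 TPM at 24 h, 34.5 and 54.0 TPM at 72 h and 29.6 and 24.1 TPM at 144 h. In DKO it measured 41.4 and 27.8 TPM at 0 h, 78.1 and 73.9 TPM at 24 h and 28.5 and 24.3 TPM at 72 h. The 24 h libraries were the highest in each genotype and the 2 genotypes did not overlap there. Lama1 rose in WT at 24 h by 2.50 ± 0.26 (limma adjusted p = 0.00013), to 5.77 times the 0 h mean, and by 2.14 on the spike-in scale (adjusted p = 0.00097). In DKO it rose by 1.14 ± 0.26 (limma adjusted p = 0.0091), to 2.20 times, a call that was lost without DKO 0 h replicate 2 and on the spike-in scale (0.59, adjusted p = 0.24).

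Lamb1, the β1 chain, measured 38.6 and 67.8 TPM in WT at 0 h, 195 and 157 TPM at 24 h, 61.3 and 69.6 TPM at 72 h and 82.1 and 68.7 TPM at 144 h. In DKO all 6 Lamb1 libraries lay between 30.1 and 61.1 TPM, below every treated WT library. The WT rise at 24 h was 1.76 ± 0.27 (limma adjusted p = 0.001), and it was 1.39 on the spike-in scale (adjusted p = 0.018). Lamc1, the γ1 chain that most laminins share, measured 207 and 201 TPM in WT at 0 h and 411 and 299 TPM at 24 h. It rose by 0.78 ± 0.16 (limma adjusted p = 0.0052), against 0.41 on the spike-in scale, where it did not pass. Lamc1 stayed between 174 and 235 TPM in DKO. Lamb2, the β2 chain, rose in WT at 24 h from 8.66 and 8.94 TPM to 19.9 and 15.3 TPM (0.91 ± 0.15, limma adjusted p = 0.0013), and this too was not past the threshold on the spike-in scale (0.59, adjusted p = 0.23).

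Lama5, the α chain of laminin-511, measured 42.1 and 64.4 TPM in WT at 0 h, 97.0 and 106 TPM at 24 h, 106 and 118 TPM at 72 h and 106 and 93.3 TPM at 144 h. In DKO it measured 58.3 and 42.6 TPM at 0 h, 99.6 and 113 TPM at 24 h and 109 and 119.5 TPM at 72 h. Every treated library of both genotypes was above every untreated one. The rises of Lama5 were 0.95, 1.09 and 0.92 in WT at the successive times and 1.08 and 1.18 in DKO. All passed on the deposited scale and none on the spike-in scale, where the sign turned at 144 h (−0.10). The ratio of Lama1 to Lama5, free of the library factor, was 0.924 and 0.830 in the 2 untreated WT libraries and 3.24 and 2.07 after 24 h. After that it was below its starting values, with 0.326 and 0.456 for 72 h and 0.280 and 0.259 for 144 h. The DKO ratios were 0.709 and 0.653 untreated, 0.784 and 0.652 after 24 h and 0.262 and 0.204 after 72 h. Lama1 thus outweighed Lama5 in 2 of the 14 libraries, both of WT at 24 h. Lama3, a chain of epithelial laminin-332, was low and uneven (1.27 to 6.70 TPM), and its 2 DKO 0 h libraries differed 3.27 times. With a block on the replicate number Lama3 fell in WT at 24 h (−0.88, limma adjusted p = 0.022, against 0.12 without the block), and Lama1 fell in WT at 144 h (−0.75, limma adjusted p = 0.042, against 0.052).

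The promoters of Lamb1, which peaked at 24 h, and Lama5, which stayed high, are shown for comparison with those of the collagen IV pair. They were read 5′ to 3′ from RefSeq (GRCm38.p6, chr12:31265043-31265342 on the plus strand and chr2:180225810-180226109 on the minus strand), with each GGGCGG or its reverse complement CCGCCC, the core of the GC box bound by Sp1, in capitals:
Lamb1: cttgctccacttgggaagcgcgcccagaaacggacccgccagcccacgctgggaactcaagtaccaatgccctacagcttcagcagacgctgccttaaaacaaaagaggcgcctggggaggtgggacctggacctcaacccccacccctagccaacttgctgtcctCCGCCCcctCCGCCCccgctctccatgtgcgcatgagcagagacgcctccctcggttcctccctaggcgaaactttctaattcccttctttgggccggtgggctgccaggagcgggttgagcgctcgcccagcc
Lama5: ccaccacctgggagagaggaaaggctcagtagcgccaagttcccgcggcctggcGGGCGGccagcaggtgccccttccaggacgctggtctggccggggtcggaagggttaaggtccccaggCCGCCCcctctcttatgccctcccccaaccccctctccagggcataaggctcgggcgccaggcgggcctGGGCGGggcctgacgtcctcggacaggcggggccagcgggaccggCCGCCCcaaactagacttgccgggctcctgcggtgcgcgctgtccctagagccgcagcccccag
Lamb1 held 2 such matches and Lama5 held 4. Promoter windows were found for 22 of the 35 members, 27 windows in all, of which 20 began within 200 bases of the deposited gene's start. GGGCGG on either strand was in 22 of the 27, against 35.7% of 32851 promoter windows of the same length in RefSeq. CCAAT was in 10 of the 27 (37.4% of all windows), GATAA, the core read by GATA factors, in 1 (25.4%), and CACGTG, the E-box read by TFE3 among others, in 0 (7.15%). A match is a description of the letters and not of binding.

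Of the linkers and proteoglycans, the 2 nidogens differed. Nid2 measured 178 and 169 TPM in WT at 0 h and 355 and 257 TPM at 24 h, and it rose by 0.80 ± 0.21 (limma adjusted p = 0.016). In DKO it measured 176 and 231 TPM at 0 h and 259 and 423 TPM at 24 h (0.71 ± 0.21, limma adjusted p = 0.032). Both calls were lost on the spike-in scale (0.43 and 0.15), and the block added a rise of Nid2 at 72 h in each genotype (0.63 in WT and 0.49 in DKO, limma adjusted p = 0.017 and 0.042). Nid1 kept to 55.6 to 94.3 TPM over all libraries and passed no test on this scale. Hspg2, which encodes perlecan, measured 74.5 and 82.1 TPM in WT at 0 h, 179 and 181 TPM at 24 h, 78.1 and 139.9 TPM at 72 h and 78.4 and 79.3 TPM at 144 h. Its rise at 24 h (1.19 ± 0.26, limma adjusted p = 0.0059) was thus not seen at 144 h, where the groups differed by 0.01 ± 0.26, and its 24 h change in DKO passed with the block only (0.59, limma adjusted p = 0.033). Agrn (agrin) measured 65.3 and 62.2 TPM in WT at 0 h, 120 and 95.1 TPM at 24 h, 121 and 159 TPM at 72 h and 107 and 105 TPM at 144 h, with no overlap between treated and untreated libraries. Agrn rose at every time in both genotypes, by 0.73, 1.11 and 0.73 in WT and by 0.80 and 1.03 in DKO. On the spike-in scale none of these passed the threshold, and at 144 h the sign was the opposite (−0.29).

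Sparc, a collagen-binding matricellular protein abundant in the matrix made by parietal endoderm, rose at 24 h and fell at 144 h in WT, as the collagen IV genes did. It measured 169 and 188 TPM in WT at 0 h, 437 and 350.5 TPM at 24 h, 113 and 129.5 TPM at 72 h and 53.5 and 51.8 TPM at 144 h. In DKO it measured 181 and 204 TPM at 0 h, 200.1 and 253 TPM at 24 h and 166 and 169 TPM at 72 h. In WT each time stood apart from the others, while the DKO libraries at 24 h overlapped those at 0 h. Sparc rose in WT at 24 h by 1.13 ± 0.14 (limma adjusted p = 0.00029), fell by 0.56 ± 0.14 at 72 h (limma adjusted p = 0.014) and fell by 1.74 ± 0.14 at 144 h (limma adjusted p = 6.5e-05). The spike-in values were 0.76, −0.98 and −2.76, of which the first was not past the threshold (adjusted p = 0.062), and the fall at 72 h was lost on the deposited scale without WT 0 h replicate 2 or WT 72 h replicate 1.

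Smoc1, a related calcium-binding matricellular protein, fell at 72 h in both genotypes. In WT it went from 16.5 and 20.8 to 9.21 and 10.7 TPM (−0.84 ± 0.18, limma adjusted p = 0.0078). In DKO it went from 17.1 and 14.3 to 7.16 and 7.61 TPM (−0.99 ± 0.18, limma adjusted p = 0.0038). At 144 h in WT it was at 10.1 and 7.96 TPM (−0.97). The fall at 72 h held on the spike-in scale in both genotypes (−1.28 and −1.33).

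Fn1, which encodes fibronectin, the ligand of integrin α5β1, was the highest member in 14 of 14 libraries. It measured 275 and 208 TPM in WT at 0 h, 582 and 535 TPM at 24 h, 552 and 534 TPM at 72 h and 574 and 585 TPM at 144 h. In DKO it measured 241 and 318 TPM at 0 h, 619 and 693 TPM at 24 h and 639 and 578 TPM at 72 h. All treated libraries were above all untreated ones in either genotype, and the rises lay between 1.13 and 1.27 in the 5 comparisons, each with an SE of 0.15. On the spike-in scale they were 0.85, 0.75 and 0.25 in WT and 0.67 and 0.83 in DKO, none past the threshold.

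**Figure D2:**
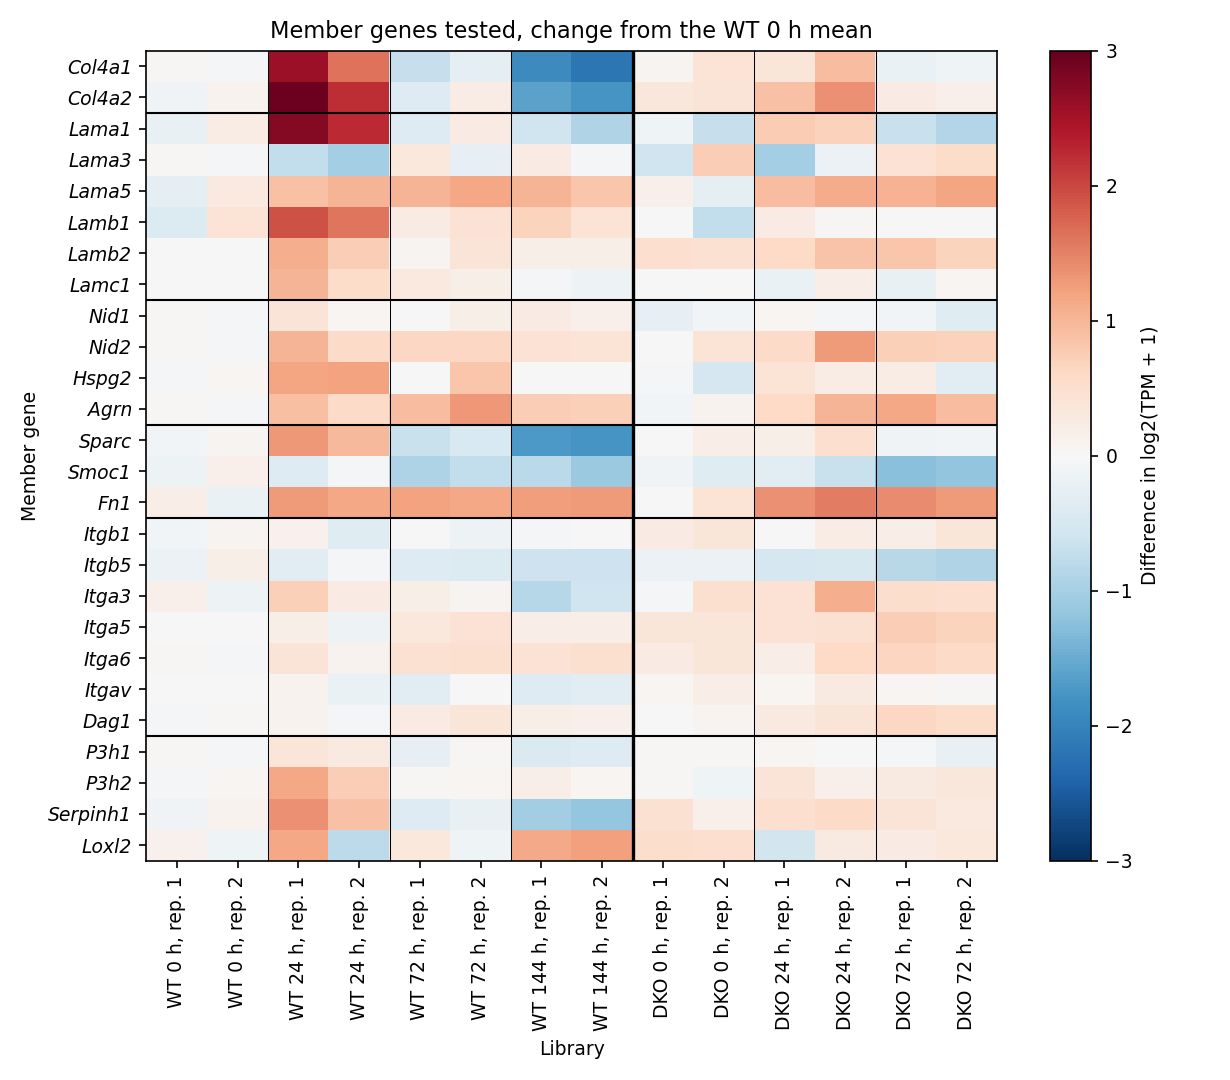
Colours show the difference in log2(TPM + 1) of each library (columns, 2 replicates per group, WT left and DKO right of the thick line) from the mean of the WT 0 h libraries for the 26 members tested (rows, grouped by role between the black lines). Red cells for Col4a1, Col4a2, Lama1 and Lamb1 stand in the WT 24 h columns, blue cells for Col4a1, Col4a2 and Sparc in the WT 144 h columns, and the receptors from Itgb1 to Dag1 are pale throughout.

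The receptors had a median change of 0.01 in WT at 24 h, beside 2.34 for the collagen IV chains tested and 0.93 for the laminin chains. None of the 7 rose or fell then in limma or with the spike-in scale. Itgb1, the β1 subunit shared by most laminin, collagen and fibronectin receptors, stayed between 66.9 and 111 TPM and passed no test on this scale. Itga6, the α subunit of the laminin receptor α6β1, measured 99.3 and 95.1 TPM in WT at 0 h, 134 and 137 TPM at 72 h and 132 and 135 TPM at 144 h. It rose by 0.47 ± 0.13 at 72 h (limma adjusted p = 0.02) and 0.46 ± 0.13 at 144 h (limma adjusted p = 0.022), against 0.05 and −0.57 on the spike-in scale. Itga5, the α subunit of the fibronectin receptor, rose at 72 h by 0.37 ± 0.10 in WT and 0.36 ± 0.10 in DKO, with −0.05 and 0.06 on the spike-in scale. Itga3, another laminin receptor subunit, was at 33.5 and 27.0 TPM in WT at 0 h and 16.2 and 19.6 TPM at 144 h (−0.73 ± 0.24, limma adjusted p = 0.045). This fall was lost in 8 of the 14 leave-one-out fits but stood on the spike-in scale (−1.73, adjusted p = 0.0002).

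Itgb5, which pairs with αv as a vitronectin receptor, fell in WT from 16.5 and 21.0 TPM at 0 h to 14.1 and 13.8 TPM at 72 h and 11.8 TPM in both libraries at 144 h. In DKO it fell from 16.3 TPM in both libraries to a mean of 9.73 TPM at 72 h. These changes were −0.39 and −0.61 in WT and −0.69 in DKO (SE 0.12 each). The one at 72 h in WT was lost in 8 of 14 leave-one-out fits, where it ranged from −0.56 to −0.23. Their spike-in values were −0.82, −1.61 and −1.01, and only the one at 144 h passed. Itgav was between 9.24 and 15.1 TPM and passed no test on the deposited scale. With the spike-in factors Nid1 (−0.83), Itgb1 (−1.03) and Itgav (−1.34) were among the genes that fell in WT at 144 h. Dag1 encodes dystroglycan, a laminin, agrin and perlecan receptor outside the integrin family. It rose in WT at 72 h by 0.31 ± 0.08 and in DKO at 24 and 72 h by 0.30 and 0.56, of which the first 2 turned sign on the spike-in scale (−0.12 and −0.26).

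Among the collagen processing members Serpinh1 gave the largest changes past the threshold. It encodes HSP47, the chaperone of collagen in the endoplasmic reticulum. It measured 36.2 and 42.0 TPM in WT at 0 h, 102 and 73.2 TPM at 24 h, 29.6 and 33.5 TPM at 72 h and 18.3 and 17.0 TPM at 144 h. In DKO its 6 libraries lay between 43.7 and 58.4 TPM. Both 24 h libraries were above those of 0 and 72 h, which overlapped. Serpinh1 rose in WT at 24 h by 1.13 ± 0.15 (limma adjusted p = 0.00055) and fell at 144 h to 0.45 of the 0 h mean (limma adjusted p = 0.00085). The spike-in values were 0.76 (adjusted p = 0.10) and −2.11 (adjusted p = 7.4e-05).

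P3h1 and P3h2 encode prolyl 3-hydroxylases, of which the second acts on collagen IV. P3h2 measured 0.608 and 0.736 TPM in WT at 0 h and 2.73 and 1.80 TPM at 24 h (0.95 ± 0.18, limma adjusted p = 0.0032). It passed the filter on low values only through these 24 h libraries (mean of the others 0.82 TPM), so it had to differ there. P3h1 rose at 24 h in WT by 0.31 ± 0.11 (limma adjusted p = 0.047), a call that 12 of 14 leave-one-out fits lost and whose spike-in value was −0.04. At 144 h it fell by 0.41 ± 0.11 (limma adjusted p = 0.018). Loxl2, a lysyl oxidase that crosslinks collagen IV, was at 5.48 and 0.684 TPM in the 2 WT 24 h libraries, an 8.01-fold gap, and passed no test.

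Counted over the 26 members tested, 15 rose and 0 fell in WT at 24 h, where 17.6% of the 15878 genes rose and 15.7% fell. The median change of the members was 0.76, beside −0.001 for all genes. At 72 h in WT 6 rose and 3 fell (14.4% and 12.8% of all genes), and at 144 h 4 rose and 8 fell (17.4% and 12.7%), with medians of 0.09 and 0.05. In DKO 7 rose and 0 fell at 24 h (13.2% and 15.1% of all genes), and 5 rose and 2 fell at 72 h (18.8% and 10.2%), with medians of 0.24 and 0.13. The share of members that rose was thus furthest above that of all genes in WT at 24 h, P3h2 included, and near it in WT at 144 h and DKO at 72 h. By role, the risers in WT at 24 h were both collagen IV chains, 5 of 6 laminin chains, 3 of 4 linkers and proteoglycans, 2 of 3 of the fibronectin and matricellular group, 3 of 4 processing genes and 0 of 7 receptors. Beside the losses given with each gene, leaving out 1 library lost calls in WT for Nid2 (3 of 14 fits) and Agrn (1) at 24 h, Itga6 (4), Itga5 (3), Smoc1 (2) and Dag1 (2) at 72 h, and Itga6 (4), P3h1 (4) and Agrn (3) at 144 h. In DKO it did so for Nid2 (2) and Dag1 (2) at 24 h and for Itga5 (4) at 72 h.

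**Figure D3:**
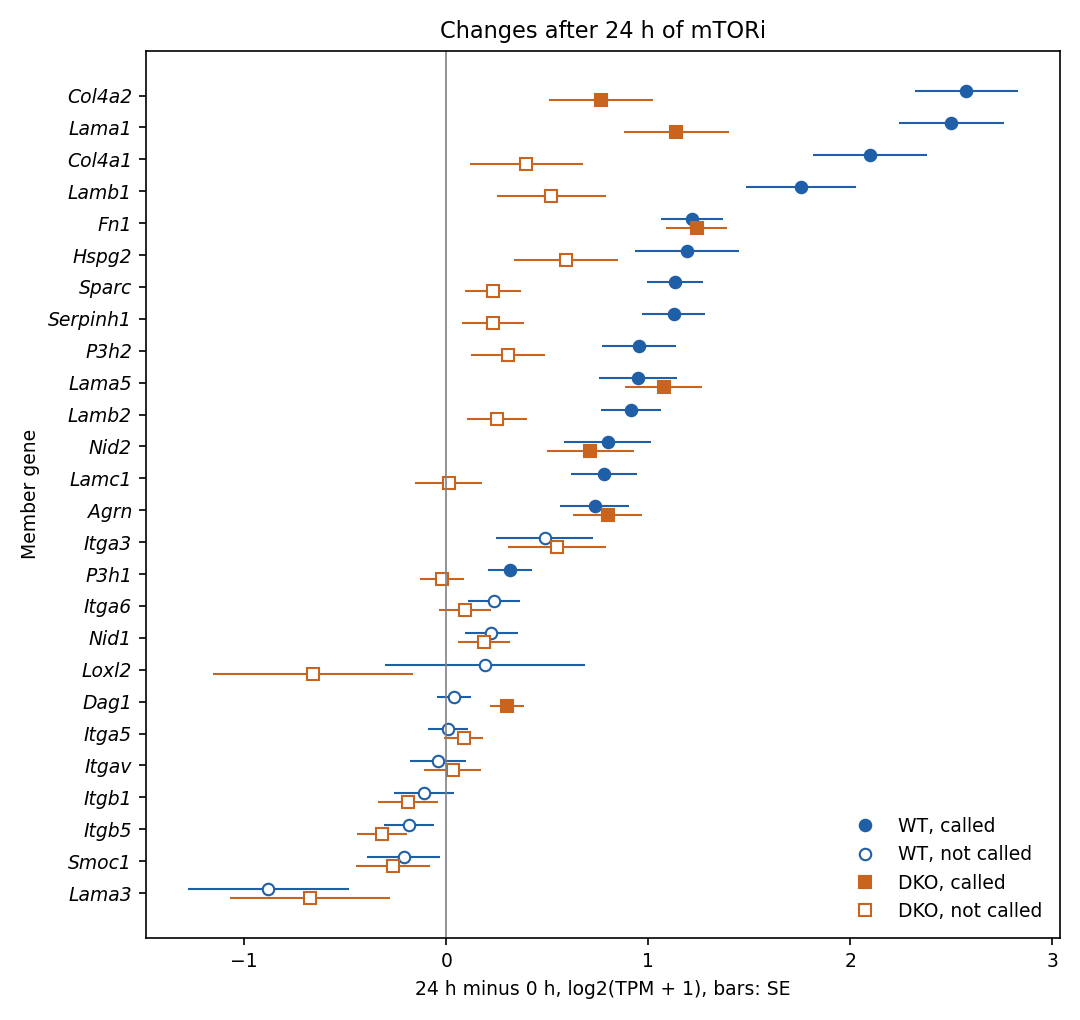
Difference between 24 h and 0 h in log2(TPM + 1) (horizontal axis, bars are SE from the fit over all libraries) for each of the 26 members (vertical axis), with circles for WT, squares for DKO and filled symbols for members past the threshold. Col4a2, Lama1, Col4a1 and Lamb1 lie furthest right in WT, between 1.76 and 2.57, with DKO values between 0.40 and 1.14, whereas Fn1, Lama5, Nid2 and Agrn lie close together in both genotypes.

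On the spike-in scale 28 members passed the filter, with Lama4 and Lamb3 added. In WT at 24 h 4 rose (Col4a1, Col4a2, Lama1 and Lamb1) and 1 fell (Lama3). There 1.25% of 18232 genes rose and 8.73% fell. The members' median was 0.39, against the −0.33 of all genes. At 72 h in WT 0 rose and 3 fell (Col4a1, Sparc and Smoc1, against 0.697% and 7.60% of all genes). At 144 h 0 rose and 17 fell, against 0.461% and 50.5% of all genes. The members' median was −0.84 there, beside the −0.83 of all genes. With the block as well 20 fell, against 66.3% of all genes. In DKO 0 rose and 2 fell at 24 h (Lama3 and Itgb1, with 0.505% and 18.7% of all genes), and 0 rose and Smoc1 fell at 72 h (0.713% and 2.95%). The rises that stood on both scales were those of the collagen IV genes, Lama1 and Lamb1 in WT at 24 h. The falls of Col4a1, Col4a2, Sparc, Serpinh1, Smoc1, Itga3, Itgb5 and P3h1 at 144 h also stood on both, each below the median of all genes.

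**Figure D4:**
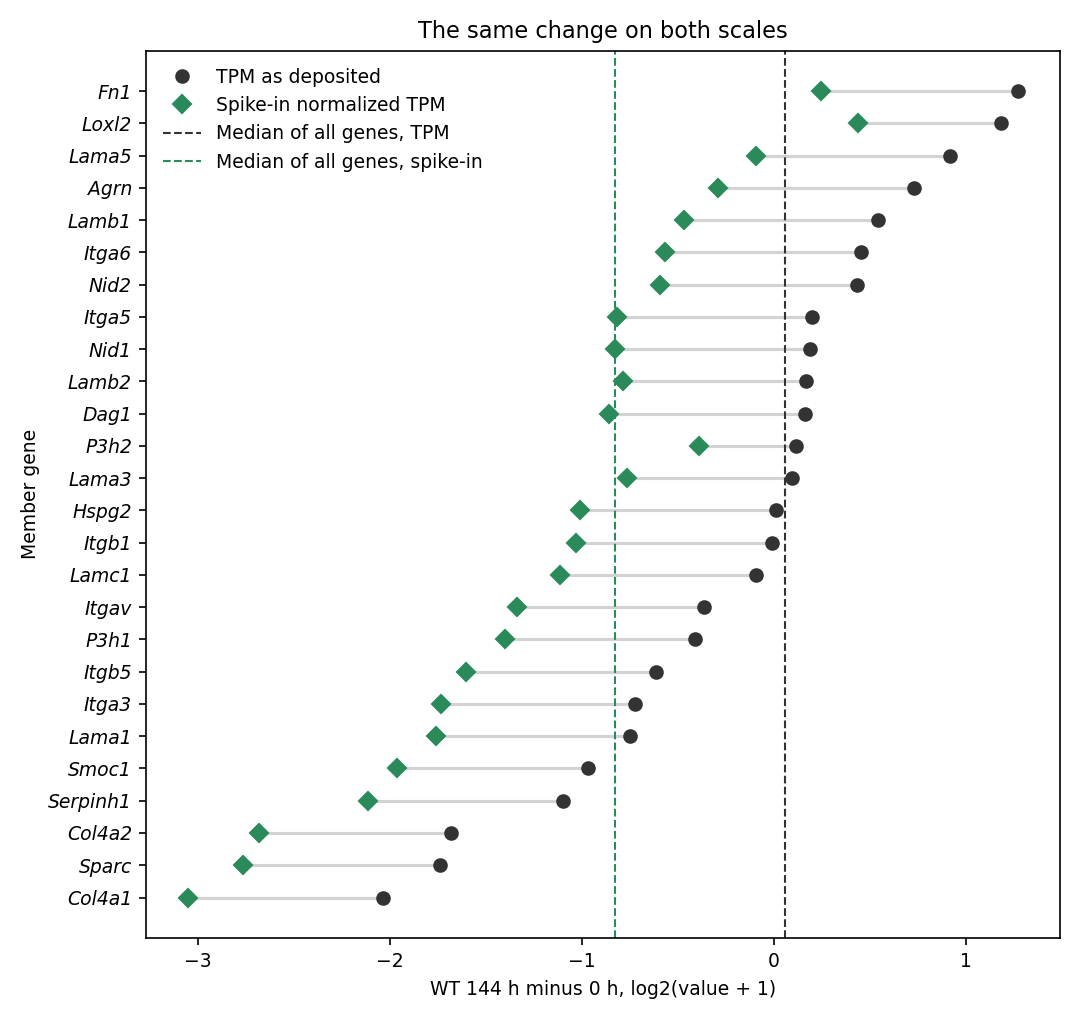
Change of each member in WT from 0 h to 144 h on the scale of deposited TPM (circles) and of spike-in normalized TPM (diamonds), in log2(value + 1), with dashed lines at the median of all genes on each scale (0.06 and −0.83). Col4a1, Sparc, Col4a2 and Serpinh1 lie left of both lines, and Fn1 and Lama5 lie right of both although Lama5 is below 0 on the spike-in scale.

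The times after 24 h were compared with each other too, which was chosen after the data had been seen. From 24 to 72 h in WT 10 members fell and 1 rose (6.49% of all genes fell and 6.13% rose). The 10 include P3h2, whose fall from the 24 h libraries was fixed by the filter, and markers of the primitive and parietal endoderm fell in the same step (given with the marker lists). Leave-one-out fits lost the calls of Itga5 (the riser, 11 of 14), Smoc1 (10), P3h1 (5), P3h2 (3), Lamb1 (2) and Lamb2 (2). The changes were −2.66 for Col4a2, −2.59 for Col4a1, −2.58 for Lama1, −1.69 for Sparc, −1.43 for Serpinh1 and −1.41 for Lamb1. The first 5 of these also fell on the spike-in scale (−2.74, −2.66, −2.64, −1.75 and −1.49), where 0.559% of all genes fell. From 72 to 144 h in WT Col4a2 (−1.60) and Sparc (−1.18) fell and 0 members rose, where 0.145% of all genes fell and 0.283% rose. The call of Col4a2 was lost in 9 of 14 leave-one-out fits and that of Sparc in 3, and neither passed without either WT 144 h library or WT 72 h replicate 2. Col4a1 changed by −1.54 in that step without passing the threshold (limma adjusted p = 0.053). With the block Col4a1 and Serpinh1 (−0.80) passed too (limma adjusted p = 0.026 and 0.049), which made 4 falls, against 0.718% of all genes lower and 0.642% higher with the block. On the spike-in scale 5 members fell in this step (0.389% of all genes), and 18 with the block as well (18.5%). From 24 to 72 h in DKO Lama1 (−1.49) and Smoc1 (−0.72) fell and 0 members rose, against 1.79% and 5.18% of all genes, and these calls were lost in 3 and 8 of 14 leave-one-out fits. The block made this 3 falls and 1 rise, with Col4a2 (−0.93, lower) and Lama3 (higher) added, against 3.55% of all genes lower and 10.9% higher with it.

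The comparison of genotypes asks whether cells without TET1 and TET2 hold these genes at another level. At 0 h 0 of the 26 members differed in limma. An unadjusted p under 0.05 was met by 3 of them and by 2358 of the 15878 genes. Of all genes 0.579% were higher and 0.233% lower in DKO. At 24 h 6 members were lower in DKO and 0 higher, against 0.989% and 0.756% of all genes. These were Lama1 (−1.78 ± 0.26, limma adjusted p = 0.013), Lamb1 (−1.61 ± 0.27, limma adjusted p = 0.023), Col4a1 (−1.46 ± 0.28, limma adjusted p = 0.035), Col4a2 (−1.45 ± 0.26, limma adjusted p = 0.025), Sparc (−0.80 ± 0.14, limma adjusted p = 0.024) and Lamc1 (−0.77 ± 0.16, limma adjusted p = 0.048). In each of the 6 the DKO mean was between 0.29 and 0.58 of the WT mean. Both DKO libraries were below both WT libraries, which the call itself makes likely and which was not counted over all genes. On the spike-in scale the differences were of like size (−1.69, −1.52, −1.37, −1.36, −0.70 and −0.68) but 0 of them passed. The number lower in DKO was 0 without DKO 24 h replicate 1, 1 without DKO 24 h replicate 2 and 0 without WT 24 h replicate 1, where 1 member was called higher instead. With 1 library left out at a time, the call of Lamc1 was lost in 14 of 14 fits, that of Col4a1 in 9 and those of the other 4 in 2 to 4. The number was 0 when only the 4 libraries compared set the spread. Fn1 (0.23 ± 0.15), Agrn (0.08 ± 0.17), Lama5 (0.06 ± 0.19) and Nid2 (0.13 ± 0.21) did not pass at 24 h.

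At 72 h only Serpinh1 differed among the members, higher in DKO by 0.64 ± 0.15 (limma adjusted p = 0.043; lost in 10 of 14 leave-one-out fits and on the spike-in scale), where 4.14% of all genes were higher and 1.07% lower. Sparc was at 166 and 169 TPM in DKO and 113 and 129.5 TPM in WT (0.47 ± 0.14, limma adjusted p = 0.079), and Col4a1 differed by 0.32 ± 0.28. WT cells were followed on to 144 h, when Col4a1, Sparc and Serpinh1 were at their lowest, and DKO cells to 72 h.

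Whether mTORi changed the members differently in the genotypes was tested as the difference of the 2 responses. At 24 h the response in DKO minus that in WT was −1.81 ± 0.36 for Col4a2 (limma adjusted p = 0.45) and −1.70 ± 0.40 for Col4a1 (limma adjusted p = 0.68). It was −1.36 ± 0.37 for Lama1 (limma adjusted p = 0.87), −0.90 ± 0.19 for Sparc (limma adjusted p = 0.65) and −0.89 ± 0.22 for Serpinh1 (limma adjusted p = 0.68). In limma 0 members and 0% of the 15878 genes passed at 24 or 72 h. At an unadjusted p under 0.05 there were 620 genes at 24 h, with 9 members among them, and 577 genes at 72 h, with 0 members. When the block and the spike-in scale were combined, a choice made after the data had been seen, Col4a2 (−2.02 ± 0.33) and Col4a1 (−1.90 ± 0.32) passed at 24 h, each at a limma adjusted p of 0.016, where 0.0439% of all genes were called lower. For Fn1, Lama5 and Agrn, which rose in both genotypes, the responses at 24 h differed by 0.02 ± 0.22, 0.13 ± 0.27 and 0.06 ± 0.24.

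Markers of the primitive endoderm rose at 24 h in WT, as the collagen IV and laminin-111 genes did. At 144 h their median change was −0.80, where Col4a1 and Col4a2 fell. Of the laminin-111 genes Lama1 (−0.75), Lamb1 (0.54) and Lamc1 (−0.09) did not pass at 144 h. Lama1 fell with the block and on the spike-in scale (−1.76), and Lamc1 on the spike-in scale (−1.12). Of 11 such markers (among them Gata6, Gata4, Sox17, Foxa2, Pdgfra and Dab2), 9 rose and 0 fell in WT at 24 h, with a median change of 2.24. Of all genes 17.6% rose and 15.7% fell then. Foxa2, 1 of the 9, passed the filter on low values only through the WT 24 h libraries (mean of the others 0.627 TPM) and had to be high there. Their summed level was 72.1 and 128 TPM in WT at 0 h, 262 and 311 TPM at 24 h, 68.7 and 122 TPM at 72 h and 49.9 and 47.2 TPM at 144 h. In DKO the sum was 110 and 67.0 TPM at 0 h, 135 and 94.9 TPM at 24 h and 83.6 and 72.3 TPM at 72 h. There 0 of the 11 rose and 0 fell at 24 h (median 0.47), beside 13.2% and 15.1% of all genes. All 11 were at 1 TPM or more in at least 1 WT 24 h library, and 5 of them were under 1 TPM in both WT 144 h libraries. Of 5 parietal endoderm markers, 4 were tested and 3 of these rose in WT at 24 h. Stra6, 1 of the 4, passed the filter through the WT 24 h libraries alone. The sum of the 5 was 73.8 and 80.6 TPM then, against 9.61 and 18.2 TPM at 0 h. In DKO 1 of the 4 rose at 24 h. For DKO against WT at 24 h, 2 of the 11 primitive endoderm markers were lower (Lrp2 −0.98, and Foxa2 −1.29, which the filter fixed) and 0 higher. The median over the 11 was −1.29, with 6 at an unadjusted p under 0.05. Of the 4 parietal endoderm markers 2 were lower (median −1.31, with 4 at an unadjusted p under 0.05). Stra6, 1 of the 4, passed the filter through the WT 24 h libraries alone, so its place in this comparison was set by the filter too. Of all 15878 genes 0.989% were lower and 0.756% higher, and 2538 were at an unadjusted p under 0.05. From 24 to 72 h in WT 6 of the 11 fell (median −2.03), as did 4 of the 4 parietal endoderm markers (median −1.66) and 6.49% of all genes. Foxa2 and Stra6 are among these, and their falls were fixed by the filter. The order within pairs of libraries differed by group. In WT at 0 and 72 h 11 of the 11 primitive endoderm markers were higher in replicate 2, as were Lama1, Lamb1, Col4a2 and Sparc. Against this order, Col4a1 and Lamc1 at 0 h and Lamc1 at 72 h were higher in replicate 1. In DKO at 0 h 10 of the 11 were higher in replicate 1, as Lama1 and Lamb1 were. There Col4a1, Col4a2, Lamc1 and Sparc were higher in replicate 2. In WT at 24 h 7 of the 11 were higher in replicate 2, while Col4a1, Lama1, Lamb1 and Sparc were higher in replicate 1. Among the 11, Lrp2 (110 and 76.7 TPM) was higher in replicate 1 there and Gata6 (12.4 and 28.1 TPM) in replicate 2. In DKO at 24 h 9 of the 11 were higher in replicate 1, as were Lama1 and Lamb1, while Col4a1, Col4a2, Lamc1 and Sparc were higher in replicate 2. The part of such cells in these results was not tested.

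**Figure D5:**
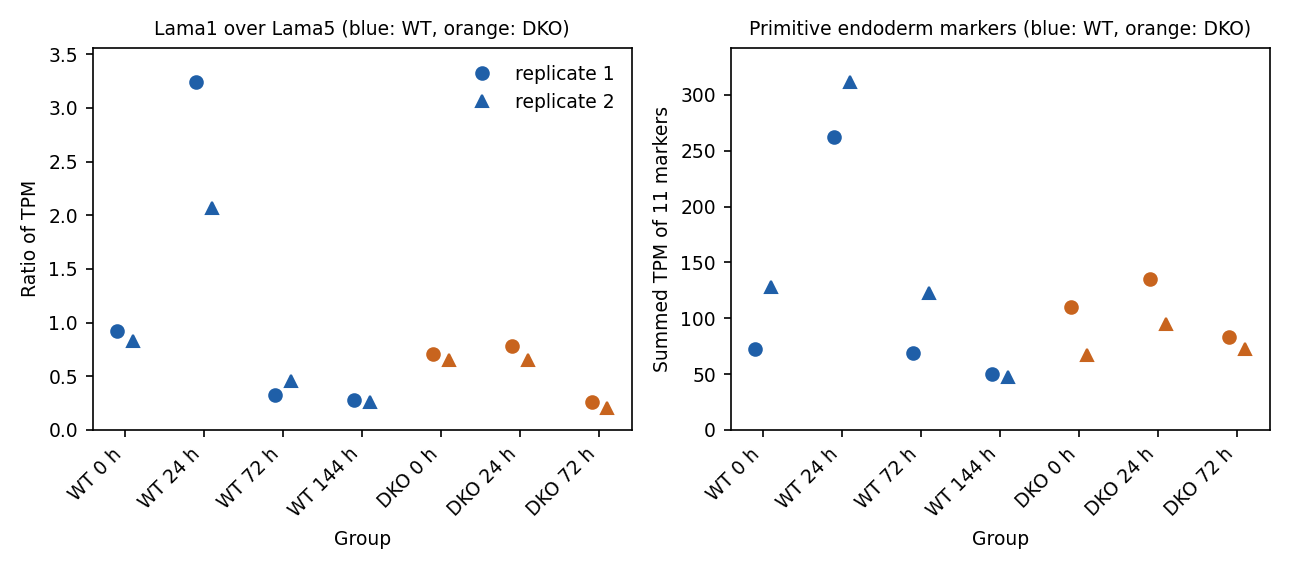
Left, the ratio of Lama1 to Lama5 TPM in each library (vertical axis) by group (horizontal axis), with circles for replicate 1 and triangles for replicate 2, blue for WT and orange for DKO; right, the summed TPM of 11 primitive endoderm markers in the same libraries. Both are highest in the 2 WT 24 h libraries, where the ratio is highest in replicate 1 and the marker sum in replicate 2.

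The 11 fibroblast markers summed to 2.77 to 18.8 TPM over all libraries, with 9 or 10 of them under 1 TPM in both libraries of each group. Col3a1, Lum and Postn of this list were under 0.1 TPM in all libraries, while Thy1 was at 1.12 to 17.1 TPM and Pdgfrb at 0.804 to 2.32 TPM. The 9 trophectoderm markers summed to 148 and 91.0 TPM in WT at 24 h and 28.5 to 79.4 TPM elsewhere. Of the 5 trophectoderm markers tested, 0 passed in WT at 24 h (median change 0.53) and at 72 h (−0.51), and 1 rose and 1 fell at 144 h (−0.86). The primitive endoderm markers had 0 falls at 72 h (median −0.16) and 2 at 144 h. Replicate 1 of WT at 24 h was the higher library for 22 of the 26 members, with a median gap of 1.27 times, and replicate 2 of DKO at 24 h for 19 of 26 (1.18 times).

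Genes of the same pathway outside the member list were read from 7 further lists. Their counts stand beside the shares of all genes given above, with 17.6% rising and 15.7% falling in WT at 24 h, 17.4% and 12.7% at 144 h, and 13.2% and 15.1% in DKO at 24 h. Of 9 other basement membrane genes tested, 3 rose and 1 fell in WT at 24 h, and at 144 h 3 rose and 2 fell. Col18a1, the collagen XVIII proteoglycan, rose at 144 h from a mean of 138 to 347 TPM (1.34 ± 0.15, limma adjusted p = 0.00033), and Frem2, a protein of the skin basement membrane, rose from 2.65 to 6.27 TPM (1.07 ± 0.36). Neither passed on the spike-in scale (0.32 and 0.29). Tinagl1, a matricellular basement membrane protein, fell from 4.12 to 0.362 TPM (−1.88 ± 0.46) and Egfl6 fell from 3.97 to 0.920 TPM (−1.37 ± 0.28). Of 5 other integrin subunits tested, 0 rose and 2 fell at 24 h, and Itgb3, which pairs with αv, fell at 144 h to 0.647 TPM (−1.03 ± 0.20).

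Of 24 focal adhesion genes tested, 10 rose and 1 fell in WT at 24 h (median 0.27) and 6 rose and 1 fell in DKO (median 0.34). At 144 h 3 rose and 2 fell. Flna, the actin crosslinker filamin A, rose from 118 to 204 TPM (0.79 ± 0.23) and the talin gene Tln2 by 0.48 ± 0.11. Parvb, a parvin gene (−1.08 ± 0.23), and the kindlin gene Fermt2 (−0.55 ± 0.11) fell. The rises of Flna and Tln2 had the opposite sign on the spike-in scale (−0.24 and −0.50).

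Of 18 other collagen processing and export genes, 6 rose and 3 fell in WT at 24 h and 1 rose and 2 fell at 144 h. Loxl1, a lysyl oxidase, rose then from 0.360 to 1.22 TPM (0.71 ± 0.20; 0.37 and not past the threshold on the spike-in scale). Pcolce, the procollagen C-proteinase enhancer, fell from 84.9 to 46.0 TPM (−0.86 ± 0.22), as did P4hb, a subunit of prolyl 4-hydroxylase (−0.32 ± 0.09). In DKO at 24 h 0 of these 18 rose and 5 fell. Of 12 dystroglycan glycosylation genes tested, 6, 4 and 4 rose and 0 fell in WT at the successive times. Among them was Pomgnt2 at 144 h (0.81 ± 0.23), which was below 0 on the spike-in scale (−0.07). Of 13 heparan sulfate synthesis genes, 6 rose and 1 fell in WT at 24 h and 4 rose and 0 fell at 144 h. The largest rises at 144 h were those of Ndst2 (0.83 ± 0.17) and Xylt2 (0.48 ± 0.10), with 0.05 and −0.51 on the spike-in scale. Of 13 matrix turnover genes, 2 rose and 2 fell at 144 h. The metalloproteinase genes Mmp11 (1.12 ± 0.09) and Mmp2 (0.90 ± 0.20) rose, with spike-in values of 0.13 and 0.03 that did not pass, and Timp1, which encodes a metalloproteinase inhibitor (−1.04 ± 0.22), was among those that fell.

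At 72 h 1 gene of each of 5 of these lists was higher in DKO than in WT and 0 were lower, beside 4.14% of all genes higher and 1.07% lower. They were Pxn, which encodes paxillin (0.38 ± 0.09), Loxl1 (0.79 ± 0.20), Pomt1 (0.45 ± 0.08), Glce (0.48 ± 0.09) and Mmp15 (0.81 ± 0.16). None of them passed on the spike-in scale, where their differences were 0.79, 1.26, 0.86, 0.89 and 1.26.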

How the data were processed

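Total RNA with ERCC spike-ins was depleted of ribosomal RNA, made into libraries and sequenced paired-end. Reads were trimmed by the authors (cutadapt 2.4), mapped to mm10 (STAR 2.7.3a per the submitters' processing notes) and turned into gene levels of the GENCODE annotation with StringTie 2.0. The deposited unit is TPM, summing to 1000000 in each library over 54446 gene identifiers. Repeated entries of an identifier were summed. TPM keep no read counts, so no counting error was given and no count test was run.

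Here log2(TPM + 1) of the 15878 genes whose mean reached 1 TPM was fitted over all 7 groups in limma (3.58.1, R 4.3.3), with variances moderated along a trend on the mean. Benjamini-Hochberg adjustment ran over all genes of a comparison, with a threshold of 0.05. With 2 replicates per group, p-values measure the spread between these cultures. Spike-in normalized TPM are the deposited TPM times 1 factor per library, taken from the part of the study's spike-in normalized expression table that was at hand. A mean ± value is an SE of the fit.

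The members and lists were chosen with earlier results of these data known. All 35 members are named, along with the Tet genes. From each pathway list, up to 2 rises and 2 falls past the threshold with libraries that do not overlap are named, for WT at 144 h against 0 h and for DKO against WT at 72 h. Any other gene is named as a marker, and some genes that this rule would name are not reported here. Replicate numbers pair the libraries within a genotype, since the study says that it handled the times of 1 replicate in parallel. Deviations of equal numbers correlated at 0.247 to 0.405 in 3 of 3 pairs within DKO and at 0.068 to 0.461 in 6 pairs within WT (5 over 0.1), and were below 0 in 10 of 12 pairs between genotypes. The block on the replicate number within a genotype leaves no test of DKO against WT. Whether the counting used strand is not given in the sources used here, so reads from the 22 bases shared by Col4a1 and Col4a2, and those of Nid2 and Rtraf, which overlap on opposite strands, could be shared between the genes. Other alternatives were another pseudocount (0.1), no filter, median centring, no trend, only the groups compared, and each library left out.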

Additional observations from a re-analysis of the deposited data

How the results depend on the processing

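Of 72 calls of a member in a comparison, 37 were kept whichever library was left out, 35 were lost in at least 1 such fit and 0 reversed. All 72 kept their call at a pseudocount of 0.1, 61 with median centring, 64 without the trend, 54 without the filter, 48 with only the groups compared and 22 on the spike-in scale, where 43 lost it and 7 reversed. With the block on the replicate number within a genotype 64 of 65 held. Leaving out 1 library gave 12 to 15 members called in WT at 24 h, 4 to 10 at 72 h and 8 to 14 at 144 h, 4 to 8 in DKO at 24 h and 6 to 9 at 72 h. For DKO against WT it gave 0 to 0 at 0 h, 0 to 5 at 24 h and 0 to 2 at 72 h, and 0 to 0 for the difference of responses at 24 and 72 h. Between times it gave 5 to 12 for WT 72 h against 24 h, 0 to 4 for WT 144 h against 72 h and 0 to 4 for DKO 72 h against 24 h. A group left with 1 library was assumed to vary like the others.

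The spike-in scale called 5 members in WT at 24 h, 3 at 72 h, 2 in DKO at 24 h, 1 in DKO at 72 h, 0 for DKO against WT at 24 h and at 72 h, 5 for WT 72 h against 24 h, 5 for WT 144 h against 72 h and 0 for DKO 72 h against 24 h. Together with the block it called 20 in WT at 144 h, 18 for WT 144 h against 72 h and 2 for the response at 24 h, where 66.3%, 18.5% and 0.0439% of all genes were lower. The block within a genotype alone called 4 for WT 144 h against 72 h and 4 for DKO 72 h against 24 h, and a block over all libraries 1 for the latter and 0 for DKO against WT at 72 h. Using only the groups compared left 3 calls in DKO at 24 h, 0 for DKO against WT at 24 h and at 72 h, 6 for WT 72 h against 24 h, and 0 for WT 144 h against 72 h and for DKO 72 h against 24 h. Without the filter there was 1 call for DKO against WT at 24 h, 0 at 72 h, 1 for WT 144 h against 72 h and 1 for DKO 72 h against 24 h. Without the trend there were 0 for DKO against WT at 72 h and 1 for DKO 72 h against 24 h, and with median centring 4 for the latter. For the leave-one-out fits and the alternatives without a share beside them, the share of all genes called is not given here. A loss of calls among the members thus cannot be told apart there from a loss over all genes. The cause was not tested.

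On the spike-in scale, with or without the block, the reversed values were −0.29 for Agrn, −0.57 for Itga6 and −0.10 for Lama5 in WT at 144 h, −0.12 for Dag1 and −0.054 for Itga5 in WT at 72 h, −0.041 for P3h1 in WT at 24 h and −0.26 for Dag1 in DKO at 24 h. TPM hold no read counts, so no counting error was given for the low members, such as Loxl2, P3h2 and Lama3.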
